A study of Mus musculus with 32 samples.

Results

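The collagen gene family was followed in skeletal muscle of mice carrying a point mutation in Gne. Its members are the protein-coding genes whose symbol is Col, a type number, the letter a and a chain number. 44 of the 54838 genes listed met that rule: 11 encode chains of fibrillar collagens, 6 chains of type IV (the basement membrane collagen), 6 chains of type VI and 21 chains of other types. The last group holds 9 FACITs (fibril-associated collagens with interrupted helices), 3 short-chain network collagens, 4 transmembrane collagens, 2 multiplexins, the anchoring fibril collagen VII and the chains of types XXVI and XXVIII.

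Collagens are extracellular matrix proteins in which chains wind around each other into a helix. In muscle, types I and III form the fibrils of the connective tissue around fibres and of tendon, type V starts and limits those fibrils, type IV forms the sheet of the basement membrane that wraps each fibre, and type VI forms beaded filaments that link basement membrane and fibrils. Most of these messages come from fibroblasts, fibro-adipogenic progenitors and tendon cells rather than from muscle fibres, and loss of type VI chains causes muscular dystrophy.

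Total RNA was sequenced from 3 muscles (gastrocnemius, quadriceps and tibialis) of male mice no older than 3 months. Wild-type mice were compared with mice carrying the GNE M743T knock-in on both alleles (M743T/M743T), which the labels call healthy or sick. Gne encodes the key enzyme of sialic acid synthesis, and mutations in the human gene cause GNE myopathy. The design names 4 mice per state, and 32 libraries were analysed: wild-type replicates 1 to 4 in each muscle, healthy knock-in replicates 1 to 3 in the gastrocnemius and 1 to 4 in the quadriceps and tibialis, and sick knock-in replicates 1 to 3 in the gastrocnemius, 2 to 4 in the quadriceps and 1, 2 and 4 in the tibialis. Values below follow that order. The ages of single mice, the signs of sickness and whether a number marks the same mouse in each muscle are not stated in the sources used, so each p-value measures no more than how these libraries vary.

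Libraries held 7685164 to 42588233 reads in genes. Levels are CPM (reads relative to a common library total, with totals scaled between libraries), or CPM per kilobase of the longest coding transcript where genes are compared with each other. Differences are log2 fold changes with their standard error from limma-voom, a linear model of log2 CPM, with p adjusted over all genes tested in that muscle by the Benjamini-Hochberg method and 0.05 as the threshold. Skeletal muscle fibre markers were abundant in all 9 groups (a summed 107298 to 221845 CPM over 12 genes). Markers of kidney tubule, 10 genes, summed to 59.0 to 80.1 CPM in all 4 wild-type tibialis libraries and to 23.01 CPM in healthy knock-in gastrocnemius replicate 2, against 0 to 1.86 CPM in all other libraries. Their part in the tibialis results was not tested. In whole muscle, fewer cells of a type and less RNA per cell cannot be told apart. Mitochondrial genes took 4.79 to 6.69% of reads in sick against 7.04 to 10.8% in wild-type quadriceps, 8.28 to 12.3% against 13.4 to 15.5% in tibialis and 5.22 to 11.1% against 8.23 to 12.6% in gastrocnemius, and their part in the results was not tested.

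Promoter sequence is shown for 5 members that the results turn on: fibrillar chains of types III and V, a type VI chain and the multiplexin chain Col15a1, which were lower in sick muscle, and the type VII chain Col7a1, the member called higher in sick against wild-type muscle. RefSeq promoters on GRCm38.p6 were matched to 35 of the 44 members, and the 250 bases before the annotated start are printed 5′ to 3′ on the strand of the gene. Capitals mark matches, on either strand, to 3 motifs: that of the CCAAT box, that of the TATA box (searched as TATAAA) and that of a GC box (searched as GGGCGG). The windows are Col3a1 at chr1:45311288-45311537 (plus strand), Col5a1 at chr2:27886175-27886424 (plus), Col6a3 at chr1:90843972-90844221 (minus), Col15a1 at chr4:47207762-47208011 (plus) and Col7a1 at chr9:108953336-108953585 (plus). The Col15a1 window precedes a RefSeq start that lies upstream of the gene start in GENCODE (chr4:47208161). The other windows adjoin the GENCODE start of their gene.
Col3a1: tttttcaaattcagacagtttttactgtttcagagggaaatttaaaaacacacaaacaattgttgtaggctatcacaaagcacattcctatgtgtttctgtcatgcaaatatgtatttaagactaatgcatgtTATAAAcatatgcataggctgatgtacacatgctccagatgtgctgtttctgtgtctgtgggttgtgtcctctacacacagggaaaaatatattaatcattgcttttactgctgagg
Col5a1: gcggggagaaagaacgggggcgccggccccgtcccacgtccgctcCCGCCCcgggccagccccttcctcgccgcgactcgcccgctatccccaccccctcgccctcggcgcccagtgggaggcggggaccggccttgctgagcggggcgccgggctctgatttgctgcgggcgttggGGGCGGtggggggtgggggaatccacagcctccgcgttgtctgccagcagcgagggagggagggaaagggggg
Col6a3: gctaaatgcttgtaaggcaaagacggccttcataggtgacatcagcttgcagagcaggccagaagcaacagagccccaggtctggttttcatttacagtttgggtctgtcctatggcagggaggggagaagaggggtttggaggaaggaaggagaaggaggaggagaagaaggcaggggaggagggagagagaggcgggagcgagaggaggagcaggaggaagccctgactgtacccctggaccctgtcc
Col15a1: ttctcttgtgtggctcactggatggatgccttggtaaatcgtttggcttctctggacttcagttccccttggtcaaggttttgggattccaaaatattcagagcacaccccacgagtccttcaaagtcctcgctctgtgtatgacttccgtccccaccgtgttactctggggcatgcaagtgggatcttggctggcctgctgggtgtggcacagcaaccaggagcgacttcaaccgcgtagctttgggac
Col7a1: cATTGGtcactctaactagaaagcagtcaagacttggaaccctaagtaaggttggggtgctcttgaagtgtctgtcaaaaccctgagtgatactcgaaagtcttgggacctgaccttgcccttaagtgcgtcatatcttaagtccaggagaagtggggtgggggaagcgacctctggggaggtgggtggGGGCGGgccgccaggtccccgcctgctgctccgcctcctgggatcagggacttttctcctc

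Col3a1 held TATAAA 117 bases before the start. Col5a1 held GGGCGG at 73 bases before the start and, on the opposite strand, at 205 bases before it. Col7a1 held GGGCGG 61 bases before the start and, at 249 bases before it, CCAAT on the opposite strand. The Col6a3 and Col15a1 windows held none of these letters. Over the 38 starts listed for the 35 members, 34.2% held the CCAAT box letters, 13.2% the TATA box letters and 57.9% the GC box letters, against 33.8, 12.4 and 32.7% of 32851 promoters of the same length. None of the 3 motifs occurred in all 5 windows.

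Several members lie side by side in the genome. Col4a1 and Col4a2 on chromosome 8 start head to head and overlap by 22 bases in the annotation, Col4a3 and Col4a4 on chromosome 1 start head to head 71 bases apart, and Col4a5 and Col4a6 on chromosome X start head to head 1308 bases apart. Col3a1 and Col5a2 on chromosome 1 end 24614 bases from each other, and Col6a1 and Col6a2 lie 85161 bases apart on 1 strand of chromosome 10. The spans of Col15a1, Col4a1, Col4a2, Col6a4, Col14a1, Col12a1, Col22a1 and Col24a1 overlap annotated antisense genes. Spans of further members, among them Col4a3, Col5a1 and Col18a1, overlap other genes on the opposite strand. Whether exons overlap was not examined. The strand used in counting is not stated, so reads from bases shared by exons of both genes could not be told apart.

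Wild-type muscle was dominated by the chains of types I and III. Per kilobase, the gastrocnemius held Col1a2 at 458 ± 239 CPM (SD, n = 4), Col1a1 at 373 ± 214 and Col3a1 at 214 ± 87.1, followed by Col4a1 at 66.2 ± 12.7, Col6a1 at 55.0 ± 14.9, Col4a2 at 48.8 ± 8.68 and Col6a2 at 47.8 ± 14.1. Neighbours in that order overlapped over the 4 libraries, apart from Col3a1 and Col4a1, whose ranges did not meet. In the quadriceps the order per kilobase was Col1a2 (312 ± 143), Col3a1 (298 ± 153), Col1a1 (264 ± 128) and Col4a1 (80.7 ± 14.9). The tibialis was led by Col3a1 at 221 ± 98.7 CPM per kilobase, ahead of Col1a2 at 173 ± 68.5 and Col1a1 at 147 ± 73.9, with Col4a1 at 90.7 ± 29.9 and Col4a2 at 66.3 ± 19.5. In these last 2 muscles each gene named overlapped its neighbour. Col15a1, a multiplexin of the outer basement membrane, was close to 20 CPM per kilobase in each muscle (20.3, 20.7 and 19.4). At the bottom, Col6a4, Col9a3 and Col10a1 were tested nowhere, with 28, 159 and 37 reads summed over 32 libraries and at most 0.201, 0.760 and 0.447 CPM. Col4a6 was not tested in the tibialis, Col9a2 not in the quadriceps, and Col25a1 was tested in the tibialis alone.

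**Figure D1:**
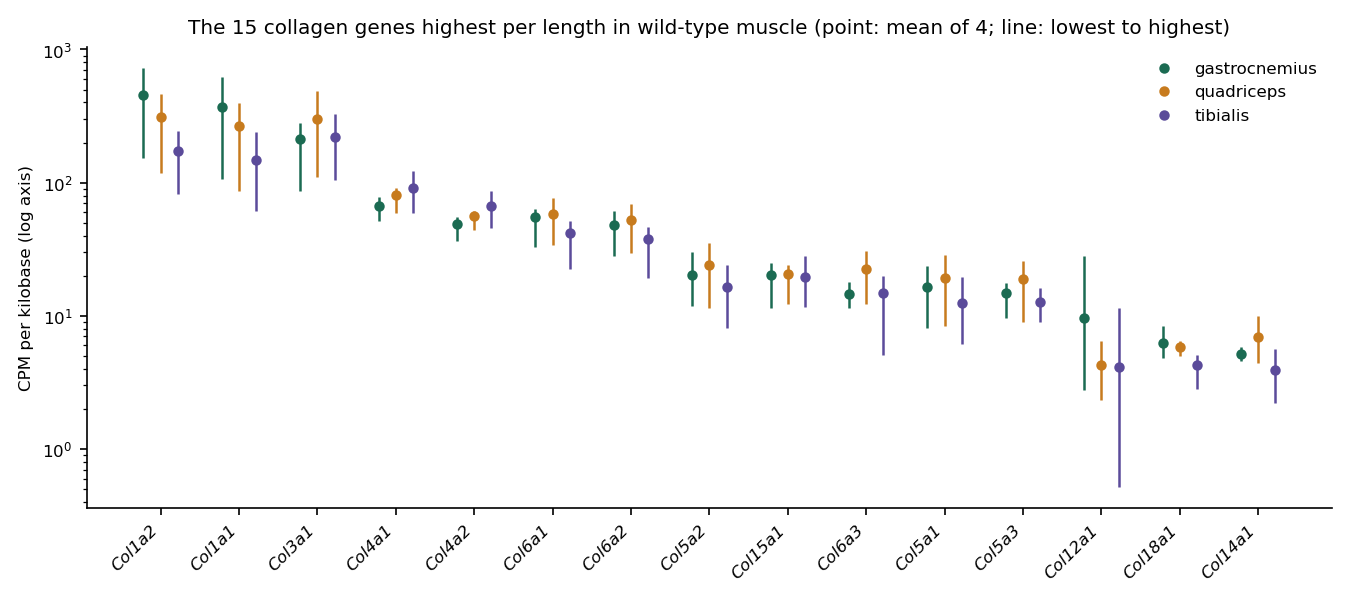
Mean CPM per kilobase of coding transcript (log axis) of the 15 most abundant collagen genes in wild-type muscle, with 1 point a muscle and a line from the lowest to the highest of 4 libraries. The type I and III chains lie highest in every muscle, from 147 to 458 CPM per kilobase.

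The fibrillar genes took 75.0 ± 7.80% of collagen reads in wild-type gastrocnemius, 70.3 ± 7.32% in quadriceps and 63.8 ± 3.66% in tibialis (SD, n = 4 each). In sick muscle they took 47.7 ± 6.36, 53.4 ± 6.19 and 36.2 ± 4.39% (n = 3 each). The share of type IV genes was 10.9 ± 4.56, 14.05 ± 4.81 and 20.9 ± 4.11% in wild type and 31.9 ± 3.62, 28.4 ± 7.32 and 44.4 ± 5.19% in sick muscle. Type VI kept to a narrow band, from a mean of 8.31 to 11.4% over the 9 groups. Shares sum to the whole, so a lower share of 1 class raises the others.

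All collagens together made up 0.266 to 1.204% of reads in the 12 wild-type libraries, 0.177 to 1.64% in the 11 healthy knock-in libraries and 0.0681 to 0.308% in the 9 sick libraries. Summed fibrillar CPM in the gastrocnemius was 7206, 6106, 9760.2 and 2176 in wild type, 896, 7949.8 and 3357 in healthy knock-in and 461, 1161 and 1002 in sick muscle. The quadriceps held 5788, 8239, 5556 and 1994 in wild type, 1799, 13514, 3220.4 and 2558 in healthy knock-in and 1121, 1830.4 and 1288 in sick muscle. The tibialis held 5041, 3554, 1567 and 3281 in wild type, 1222, 7576, 3265 and 3733 in healthy knock-in and 214, 485 and 529 in sick muscle. In each muscle every sick library was below every wild-type library, whereas healthy knock-in libraries reached into the sick range in the gastrocnemius and quadriceps and lay above it in the tibialis. Healthy knock-in replicate 2 was the highest and replicate 1 the lowest of that state in all 3 muscles, and among wild-type libraries replicate 4 was lowest in the gastrocnemius and quadriceps and replicate 3 in the tibialis. As ratios of group means, the wild-type fibrillar sum was 7.22, 3.82 and 8.21 times the sick sum in gastrocnemius, quadriceps and tibialis. The type VI sum was 3.90, 2.67 and 5.16 times as high, the type IV sum 1.33, 1.28 and 2.15 times, and the sum of the other types 2.33, 1.87 and 2.52 times.

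**Figure D2:**
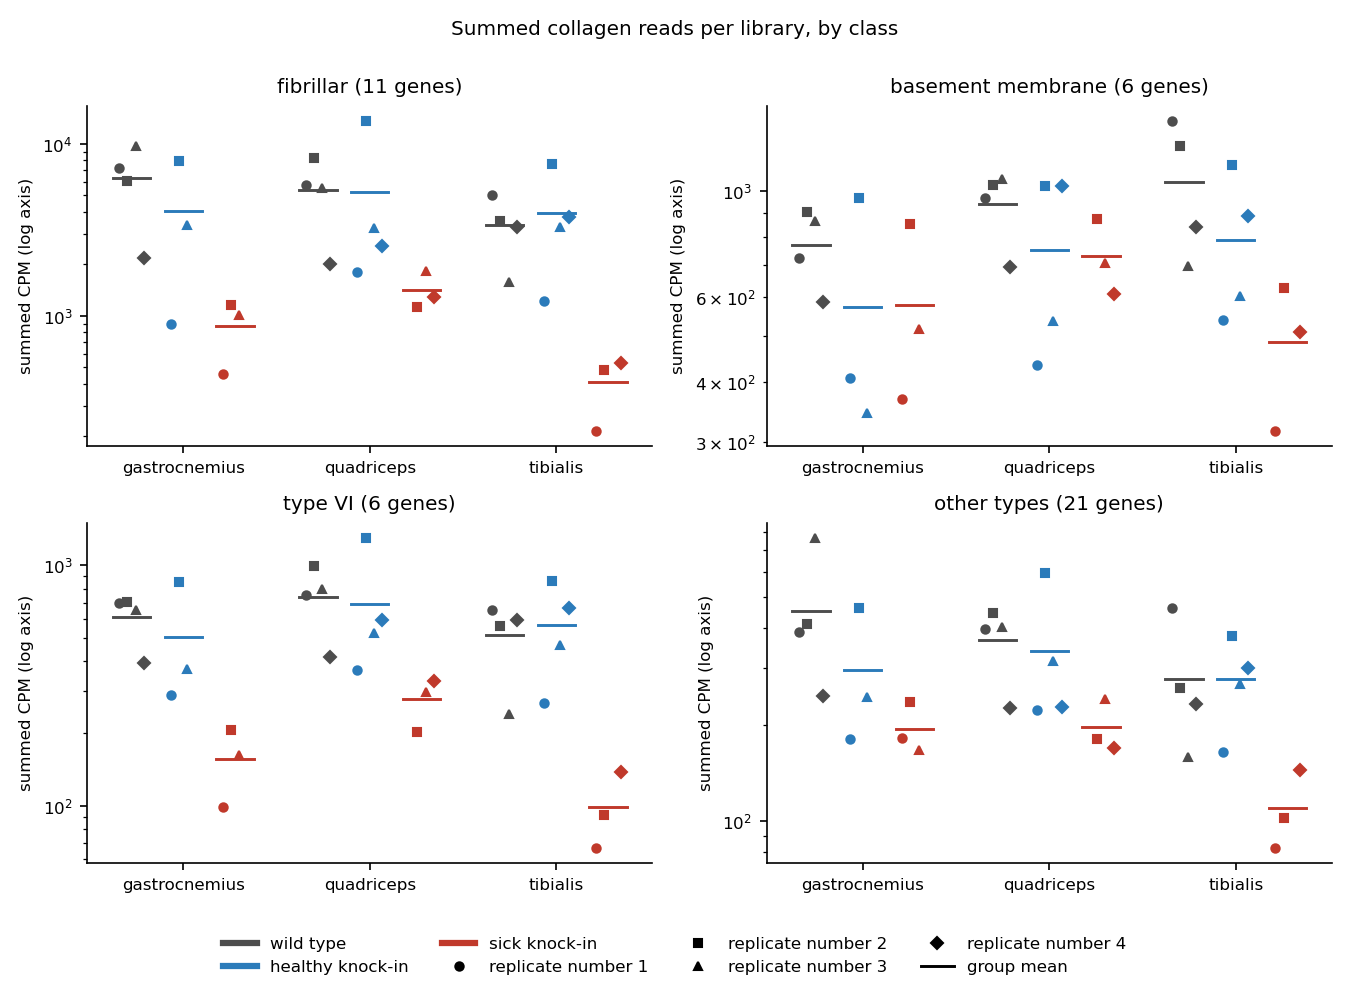
Summed CPM (log axis) of the genes of each collagen class in every library, by muscle, with colour for the state, symbol shape for the replicate number and a bar for the group mean. Sick libraries lie below all wild-type libraries of their muscle for the fibrillar and type VI classes, while type IV sums of sick and wild-type libraries overlap in the gastrocnemius and quadriceps.

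Sick against wild-type muscle asks what accompanies sickness. In the gastrocnemius 40 members passed the filter on low counts, 9 were lower and 0 higher, where 6.52% of all 14155 genes tested were lower and 8.22% higher. In the quadriceps 4 of 39 members were lower and 0 higher, against 7.49% lower and 10.5% higher of all genes. In the tibialis 17 of 40 were lower and 1 higher, against 9.61% lower and 8.44% higher of all genes. The median log2 fold change of the members tested was -1.15, -1.23 and -1.503 in the 3 muscles, where the median of all genes was -0.03, 0.00 and -0.05. Every sick library was below every wild-type library for 16, 12 and 22 of these members, against 13.9, 14.4 and 16.1% of all genes. Of 38 members tested in all 3 muscles, 32 had a log2 fold change below 0 in each. The share of all genes below 0 in each muscle is not given, and the muscles may come from the same mice.

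Col6a2, Col6a3 and Col15a1 fell in all 3 muscles, and 19 members fell in at least 1. The shares of all genes that did so are not given, so these 2 counts have no background to be read against. The gastrocnemius count was 3 to 5 without wild-type replicate 1, 2 or 3 or without sick replicate 1, 2 or 3, and 11 without wild-type replicate 4. The quadriceps count rested on single libraries most: it was 0 without sick replicate 2, 1 without wild-type replicate 3 or sick replicate 3, 2 without wild-type replicate 1 or 2, 7 without sick replicate 4 and 14 without wild-type replicate 4. The tibialis count of 18 calls was 10 without wild-type replicate 1 or 2, 9 without sick replicate 1 and 8 without sick replicate 2. With no filter on low counts, 4, 2 and 5 calls were left, Col1a1, Col1a2 and Col3a1 in no muscle among them, and Col6a1, Col6a2 and Col15a1 among them in gastrocnemius and tibialis. Shares of all genes called in these fits are not given, so a shift in collagens cannot be told from a shift over all genes. In the authors' deposited table, 10, 11 and 20 members were lower at an adjusted p under 0.05 in gastrocnemius, quadriceps and tibialis, of which 8, 4 and 16 were also lower here. The shares of all genes lower in the deposited table are not given.

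**Figure D3:**
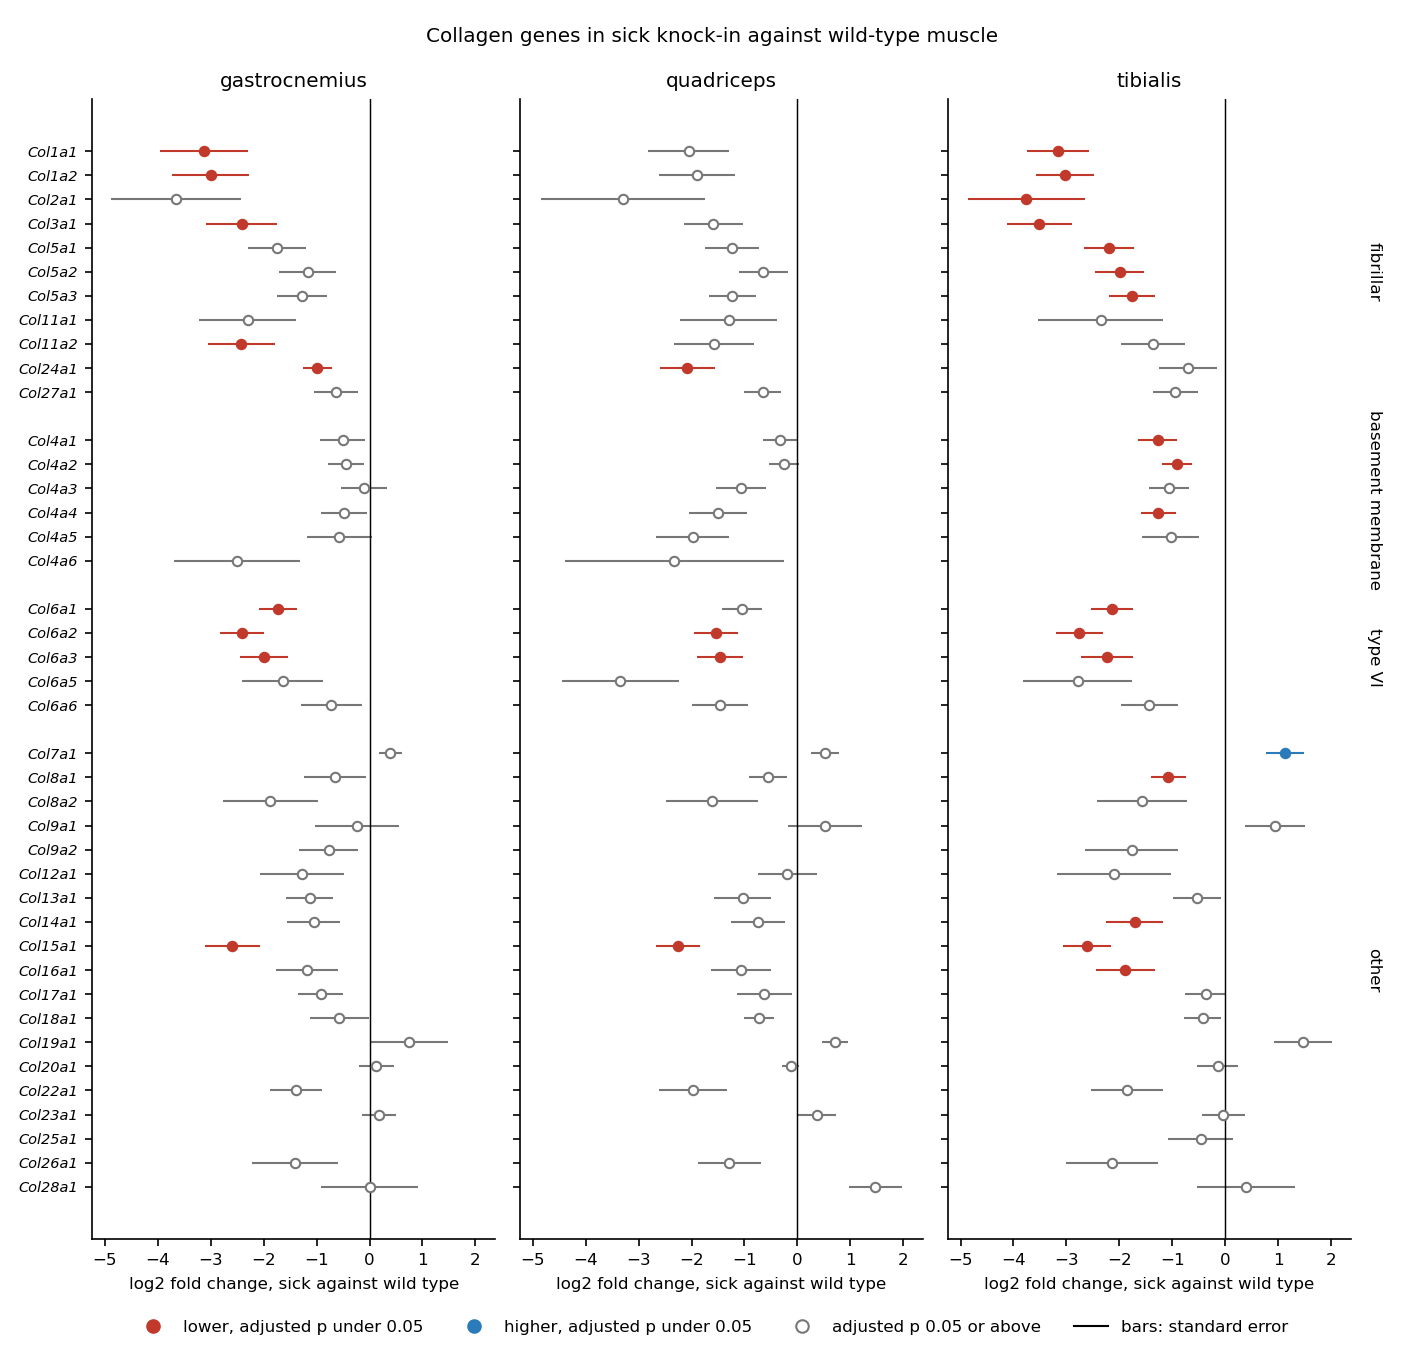
Log2 fold change of each collagen gene tested in sick against wild-type muscle, by muscle and class, with bars for the standard error and filled symbols for an adjusted p under 0.05. Of the filled symbols, 9 lie below 0 in the gastrocnemius, 4 in the quadriceps and 17 in the tibialis, and Col7a1 in the tibialis lies above.

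Among fibrillar genes, 5 of 11 fell in sick gastrocnemius, 1 of 11 in sick quadriceps and 7 of 11 in sick tibialis, with median log2 fold changes of -2.30, -1.58 and -2.19. Col1a1 and Col1a2, the chains of type I collagen, and Col3a1, the chain of type III, led them by level. Col1a1 (chr11:94936224-94953042, plus strand) and Col1a2 (chr6:4504814-4541544, plus strand) were high and low in the same libraries.
Col1a1 in the gastrocnemius stood at 2603, 1934, 3668 and 632 CPM in wild type, 182, 2701 and 1117 in healthy knock-in and 113, 275 and 266 in sick muscle. In the quadriceps, Col1a1 measured 1741, 2341, 1665 and 517 CPM in wild type, 358, 4447, 956 and 519.6 in healthy knock-in and 256, 444 and 269 in sick muscle. Col1a1 in the tibialis stood at 1429.8, 785, 366 and 903 CPM in wild type, 288, 2082, 1166 and 976 in healthy knock-in and 49.6, 132 and 101 in sick muscle. Sick libraries were below all wild-type libraries in each muscle. Healthy knock-in replicate 1 lay within the sick range in the gastrocnemius and quadriceps, and the tibialis alone separated sick from both other states. Col1a1 was 8.76-fold lower in sick gastrocnemius (log2 fold change -3.13 ± 0.83, adjusted p = 0.0323, limma) and 8.90-fold lower in sick tibialis (-3.15 ± 0.58, adjusted p = 0.00793, limma). In the quadriceps its log2 fold change was -2.06 ± 0.77 with an adjusted p of 0.0830 (limma), and wild-type replicate 4 and sick replicate 3 lay 517 against 444 CPM apart.
Col1a2 in the gastrocnemius stood at 2817, 2278, 3884 and 813 CPM in wild type, 263, 2769.9 and 1657 in healthy knock-in and 161, 327 and 318 in sick muscle. In the quadriceps, Col1a2 measured 1801, 2477, 1764 and 632 CPM in wild type, 425, 4638, 1173 and 653 in healthy knock-in and 284, 548 and 353 in sick muscle. Col1a2 in the tibialis stood at 1306, 892, 439.6 and 1069 CPM in wild type, 328, 2051, 1344 and 1175 in healthy knock-in and 56.8, 157 and 130.3 in sick muscle. The same libraries were high and low as for Col1a1. The log2 fold change of Col1a2 was -3.00 ± 0.73 in the gastrocnemius (adjusted p = 0.0250, limma), -1.90 ± 0.72 in the quadriceps (adjusted p = 0.0851) and -3.03 ± 0.55 in the tibialis (adjusted p = 0.00764).

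Col3a1 (chr1:45311538-45349706, plus strand), whose type III fibrils are abundant in the endomysium and in young tissue, was called in the same muscles.
Col3a1 in the gastrocnemius stood at 1324, 1405, 1556 and 479 CPM in wild type, 289, 1904 and 358 in healthy knock-in and 97.8, 305 and 258 in sick muscle. In the quadriceps, Col3a1 measured 1707, 2706, 1609 and 618 CPM in wild type, 787, 3515, 781 and 1014 in healthy knock-in and 382, 561 and 470.4 in sick muscle. Col3a1 in the tibialis stood at 1822, 1522, 583 and 1002 CPM in wild type, 442, 2811, 501 and 1232 in healthy knock-in and 50.6, 104 and 183 in sick muscle. Sick quadriceps and tibialis lay below every other library of their muscle, while in the gastrocnemius healthy knock-in replicate 1 stood within the sick range. Col3a1 fell 5.34-fold in sick gastrocnemius (log2 fold change -2.42 ± 0.68, adjusted p = 0.0387, limma) and 11.4-fold in sick tibialis (-3.51 ± 0.61, adjusted p = 0.00672, limma). Its quadriceps value was -1.58 ± 0.56 with an adjusted p of 0.0680. Without 1 library at a time the tibialis calls of Col1a1, Col1a2 and Col3a1 all held (adjusted p at most 0.0297), whereas their gastrocnemius calls held only without wild-type replicate 4, with adjusted p up to 0.0818, 0.0693 and 0.0955.

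Type V chains, which co-assemble into type I fibrils, fell in the tibialis.
Col5a1 in the tibialis stood at 166, 108, 51.6 and 90.7 CPM in wild type, 48.4, 209, 70.3 and 96.5 in healthy knock-in and 16.6, 20.3 and 26.6 in sick muscle. Col5a2 in the tibialis stood at 158, 114, 53.3 and 112 CPM in wild type, 60.6, 194, 76.3 and 152 in healthy knock-in and 14.9, 34.1 and 31.5 in sick muscle. Col5a3 in the tibialis stood at 93.3, 99.0, 54.8 and 65.0 CPM in wild type, 35.5, 161, 53.4 and 68.1 in healthy knock-in and 14.9, 24.2 and 29.8 in sick muscle. All 3 type V genes had every sick tibialis library below every wild-type and healthy knock-in library. Col5a1 fell 4.57-fold (log2 fold change -2.19 ± 0.47, adjusted p = 0.0131), Col5a2 3.98-fold (-1.99 ± 0.46, adjusted p = 0.0171) and Col5a3 3.40-fold (-1.77 ± 0.44, adjusted p = 0.0212, limma). Each of these calls was lost without at least 1 sick library, at adjusted p of 0.0502 for Col5a1 without replicate 2, 0.0515 for Col5a2 without replicate 1 and up to 0.0658 for Col5a3.
Col5a1 in the gastrocnemius stood at 131, 151, 198 and 68.4 CPM in wild type, 49.5, 175 and 54.4 in healthy knock-in and 19.5, 66.4 and 39.9 in sick muscle. Col5a2 in the gastrocnemius stood at 116, 140.3, 199.5 and 78.5 CPM in wild type, 50.1, 163 and 60.1 in healthy knock-in and 25.2, 102 and 66.2 in sick muscle. Col5a3 in the gastrocnemius stood at 106, 108, 88.0 and 59.3 CPM in wild type, 41.2, 134 and 40.6 in healthy knock-in and 22.8, 62.5 and 32.3 in sick muscle. Sick replicate 2 was the highest sick gastrocnemius library for all 3 and reached into the wild-type range for Col5a2 and Col5a3. Their gastrocnemius log2 fold changes were -1.75 ± 0.55 for Col5a1 (adjusted p = 0.0572), -1.17 ± 0.54 for Col5a2 (0.1605) and -1.27 ± 0.47 for Col5a3 (0.0936).
In the quadriceps, Col5a1 measured 177, 240.1, 162 and 70.6 CPM in wild type, 71.9, 293, 93.9 and 85.2 in healthy knock-in and 50.4, 80.3 and 57.5 in sick muscle. In the quadriceps, Col5a2 measured 162, 233, 166 and 76.0 CPM in wild type, 74.0, 278, 102 and 149.6 in healthy knock-in and 87.5, 125 and 70.7 in sick muscle. In the quadriceps, Col5a3 measured 121, 159, 125 and 54.8 CPM in wild type, 54.0, 184, 64.5 and 115 in healthy knock-in and 41.9, 48.1 and 44.3 in sick muscle. In the quadriceps only Col5a3 kept sick and wild-type libraries apart, and no type V gene was called (adjusted p 0.0731 to 0.343).

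Col11a2 and Col2a1, chains of the cartilage collagens XI and II that are also made at low level elsewhere, were called in 1 muscle each.
Col11a2 in the gastrocnemius stood at 57.2, 33.0, 40.7 and 19.7 CPM in wild type, 8.51, 43.0 and 35.3 in healthy knock-in and 8.67, 4.47 and 7.68 in sick muscle. In the quadriceps, Col11a2 measured 28.3, 21.97, 17.1 and 9.90 CPM in wild type, 9.49, 63.2, 14.03 and 4.21 in healthy knock-in and 5.21, 9.35 and 5.49 in sick muscle. Col11a2 in the tibialis stood at 8.85, 7.77, 5.50 and 13.8 CPM in wild type, 3.91, 22.4, 19.6 and 8.84 in healthy knock-in and 2.94, 3.13 and 4.42 in sick muscle. Sick libraries were below all wild-type libraries in each muscle, and healthy knock-in libraries overlapped both. Col11a2 fell 5.37-fold in sick gastrocnemius (log2 fold change -2.42 ± 0.63, adjusted p = 0.0303, limma, and up to 0.141 without 1 library). Its values were -1.58 ± 0.75 in quadriceps and -1.36 ± 0.61 in tibialis, with adjusted p of 0.154 and 0.128. Col2a1 stood at 0.796 to 2.73 CPM in wild-type tibialis and 0.0397 to 0.175 CPM in sick tibialis, a log2 fold change of -3.76 ± 1.11 (adjusted p = 0.0380, held only without wild-type replicate 3). Col24a1, a fibrillar collagen of developing bone, fell in gastrocnemius (-0.98 ± 0.28, adjusted p = 0.0391) and quadriceps (-2.08 ± 0.52, adjusted p = 0.0241), each lost without some libraries at adjusted p up to 0.113 and 0.175. Col11a1 and Col27a1 passed in no muscle, with log2 fold changes from -2.35 to -0.63.

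Markers of tendon cells and of fibro-adipogenic progenitors, cells known to make fibrillar collagen, were followed beside these genes. Of 11 tendon markers, 4 were lower and 1 higher in sick gastrocnemius (Egr1, an immediate early gene that is also in the list of signals), 1 lower in quadriceps and 6 lower in tibialis. Kera (keratocan, a proteoglycan of tendon and cornea) had log2 fold changes of -5.89 ± 1.06, -4.58 ± 1.24 and -5.91 ± 1.48 (adjusted p = 0.00881, 0.0313 and 0.0217, limma). Summed tendon markers stood at 664 to 1514 CPM in wild-type gastrocnemius against 274 to 470.3 in sick, 456 to 738 against 159.6 to 622 in quadriceps and 251 to 874 against 72.2 to 109 in tibialis, and none of the 11 was at 0. Of 13 markers of fibro-adipogenic progenitors, the resident mesenchymal cells of muscle, 6, 3 and 6 were lower in the 3 muscles and 0 higher. Their summed level overlapped between sick and wild type in gastrocnemius (1060.4 to 2252 against 1799 to 2647 CPM) and quadriceps (1856 to 2514 against 2008 to 2363 CPM), and did not in tibialis (579 to 1134 against 1140.5 to 1487 CPM). Lum (lumican, which binds fibrils) led them with log2 fold changes of -2.22 ± 0.45, -1.67 ± 0.36 and -3.38 ± 0.41 (adjusted p = 0.0134, 0.0164 and 0.000800). The part of either cell type in the collagen result was not tested.

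Of the basement membrane genes, 0 of 6 passed in sick gastrocnemius, 0 of 6 in quadriceps, and 3 of 5 fell in tibialis. Median log2 fold changes were -0.50, -1.28 and -1.07. Col4a1 (chr8:11198423-11312826, minus strand) and Col4a2 (chr8:11312805-11449287, plus strand) make the type IV network found in nearly all basement membranes.
Col4a1 in the gastrocnemius stood at 396, 518, 497 and 341 CPM in wild type, 222, 558 and 182 in healthy knock-in and 189.8, 495 and 299 in sick muscle. In the quadriceps, Col4a1 measured 539, 598, 606 and 393 CPM in wild type, 247, 583, 297 and 624 in healthy knock-in and 501, 416 and 338 in sick muscle. Col4a1 in the tibialis stood at 813, 717, 394 and 475 CPM in wild type, 289.6, 673, 319.5 and 529.8 in healthy knock-in and 154, 342 and 257 in sick muscle. Sick and wild-type libraries overlapped in gastrocnemius and quadriceps and did not in tibialis, where healthy knock-in replicates 1 and 3 reached the sick range. The log2 fold change of Col4a1 was -0.51 ± 0.42 in gastrocnemius (adjusted p = 0.419), -0.32 ± 0.33 in quadriceps (0.514) and -1.28 ± 0.36 in tibialis (0.0328, limma).
Col4a2 in the gastrocnemius stood at 314, 357, 352 and 236 CPM in wild type, 174, 375 and 153 in healthy knock-in and 169, 342 and 206 in sick muscle. In the quadriceps, Col4a2 measured 386, 377, 396 and 283 CPM in wild type, 170.2, 386, 219 and 369 in healthy knock-in and 359.6, 281 and 253 in sick muscle. Col4a2 in the tibialis stood at 562, 504, 293 and 353 CPM in wild type, 238, 441, 273 and 346 in healthy knock-in and 156, 281 and 243 in sick muscle. Col4a2 followed Col4a1, with log2 fold changes of -0.44 ± 0.34, -0.26 ± 0.29 and -0.91 ± 0.29 and adjusted p of 0.390, 0.548 and 0.0476 (limma). The tibialis call of Col4a1 was lost without wild-type replicate 1 or 2 or sick replicate 1 (adjusted p up to 0.108), and that of Col4a2 held only without wild-type replicate 3 (up to 0.158).

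Col4a3, Col4a4 and Col4a5 form the type IV network of kidney glomerulus, lung and some other sites, and were low in muscle.
Col4a4 in the gastrocnemius stood at 4.22, 9.38, 5.75 and 3.36 CPM in wild type, 4.11, 8.09 and 4.19 in healthy knock-in and 3.38, 5.79 and 2.26 in sick muscle. In the quadriceps, Col4a4 measured 9.73, 16.5, 14.6 and 5.43 CPM in wild type, 5.27, 14.2, 7.85 and 6.98 in healthy knock-in and 4.69, 1.37 and 7.35 in sick muscle. Col4a4 in the tibialis stood at 6.52, 9.11, 4.34 and 4.86 CPM in wild type, 3.84, 6.08, 5.32 and 2.88 in healthy knock-in and 2.14, 2.26 and 2.97 in sick muscle. Sick tibialis lay below wild-type tibialis, and healthy knock-in replicate 4 lay within the sick range. Col4a4 fell 2.40-fold in sick tibialis (log2 fold change -1.26 ± 0.34, adjusted p = 0.0268, limma), lost without wild-type replicate 1 or 2 or sick replicate 1 or 2 (up to 0.0970).
Col4a3 in the gastrocnemius stood at 1.97, 6.70, 3.98 and 2.45 CPM in wild type, 3.89, 3.95 and 2.70 in healthy knock-in and 3.46, 3.72 and 2.03 in sick muscle. In the quadriceps, Col4a3 measured 7.54, 10.6, 10.7 and 4.03 CPM in wild type, 3.40, 7.77, 5.59 and 5.66 in healthy knock-in and 4.26, 1.495 and 7.27 in sick muscle. Col4a3 in the tibialis stood at 6.74, 5.85, 3.26 and 2.87 CPM in wild type, 2.81, 3.47, 3.16 and 3.12 in healthy knock-in and 3.61, 1.55 and 1.69 in sick muscle. The states overlapped for Col4a3 in every muscle, and its lowest adjusted p was 0.0660 (tibialis, log2 fold change -1.07 ± 0.38). Col4a3 and Col4a4 are abundant in kidney. Kidney tubule markers stood out in the wild-type tibialis libraries and in healthy knock-in gastrocnemius replicate 2. Wild-type quadriceps, where those markers summed to 0.350 to 0.588 CPM, held 5.43 to 16.5 CPM of Col4a4 and 4.03 to 10.7 CPM of Col4a3. The part of kidney reads in these values was not tested.
Col4a5 in the gastrocnemius stood at 7.69, 12.2, 4.95 and 3.99 CPM in wild type, 4.18, 16.9 and 2.91 in healthy knock-in and 2.68, 6.54 and 4.86 in sick muscle. In the quadriceps, Col4a5 measured 21.2, 26.1, 28.1 and 6.75 CPM in wild type, 6.44, 31.8, 7.23 and 15.6 in healthy knock-in and 4.26, 6.604 and 4.52 in sick muscle. Col4a5 in the tibialis stood at 4.67, 4.68, 2.61 and 2.75 CPM in wild type, 2.88, 8.91, 1.65 and 3.95 in healthy knock-in and 1.10, 1.75 and 2.501 in sick muscle. Col4a5 was high in 3 of 4 wild-type quadriceps libraries and low in all 3 sick ones, with a log2 fold change of -1.98 ± 0.70 that did not pass (adjusted p = 0.0685). Its values in gastrocnemius and tibialis were -0.57 ± 0.62 and -1.03 ± 0.54. Of 14 laminin and other basement membrane genes, 0, 2 and 2 were lower in the 3 muscles and 0 higher, with Lama4 (laminin alpha 4) at -0.72 ± 0.21 in quadriceps (adjusted p = 0.0398) and -1.03 ± 0.33 in tibialis (0.0494).

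Type VI genes Col6a1, Col6a2 and Col6a3, the chains that assemble into type VI filaments, fell in 8 of 9 tests of sick against wild-type muscle. By class, 3 of 5 genes tested were lower in gastrocnemius, 2 of 5 in quadriceps and 3 of 5 in tibialis, with medians of -1.73, -1.46 and -2.23 on the log2 scale. For each of these 3 genes, every sick library was below every other library of its muscle.
Col6a1 in the gastrocnemius stood at 261, 252, 256 and 134 CPM in wild type, 94.0, 283 and 139 in healthy knock-in and 48.0, 74.8 and 74.5 in sick muscle. In the quadriceps, Col6a1 measured 241, 313, 258 and 139 CPM in wild type, 125, 409, 174 and 177 in healthy knock-in and 87.1, 123 and 115 in sick muscle. Col6a1 in the tibialis stood at 212, 182, 92.4 and 197 CPM in wild type, 83.2, 285, 168 and 233 in healthy knock-in and 27.9, 39.9 and 44.4 in sick muscle. Col6a1 (chr10:76708792-76726168, minus strand) fell 3.32-fold in sick gastrocnemius (log2 fold change -1.73 ± 0.37, adjusted p = 0.0145, limma) and 4.39-fold in sick tibialis (-2.14 ± 0.39, adjusted p = 0.00764). The quadriceps value was -1.05 ± 0.38 (adjusted p = 0.0730), with 123 CPM in the highest sick library and 125 in the lowest healthy knock-in library.
Col6a2 in the gastrocnemius stood at 283, 248, 229 and 130.2 CPM in wild type, 93.4, 285 and 126 in healthy knock-in and 25.5, 58.2 and 41.2 in sick muscle. In the quadriceps, Col6a2 measured 242, 322, 266 and 137 CPM in wild type, 113, 422, 174 and 184 in healthy knock-in and 56.5, 86.4 and 93.5 in sick muscle. Col6a2 in the tibialis stood at 218, 184, 90.3 and 208 CPM in wild type, 84.8, 295, 155 and 240.2 in healthy knock-in and 17.3, 21.1 and 39.7 in sick muscle. Col6a2 (chr10:76595762-76623630, minus strand) was the member with the lowest adjusted p in gastrocnemius and tibialis: it fell 5.34-fold (log2 fold change -2.42 ± 0.42, adjusted p = 0.00730, limma) and 6.75-fold (-2.75 ± 0.44, adjusted p = 0.00466). In the quadriceps it fell 2.92-fold (-1.54 ± 0.42, adjusted p = 0.0311, up to 0.150 without 1 library).
Col6a3 in the gastrocnemius stood at 137, 181, 159.7 and 116 CPM in wild type, 86.6, 253 and 92.0 in healthy knock-in and 21.01, 67.2 and 34.4 in sick muscle. In the quadriceps, Col6a3 measured 231, 311, 237 and 124 CPM in wild type, 109.5, 404, 151 and 198 in healthy knock-in and 52.4, 77.5 and 107 in sick muscle. Col6a3 in the tibialis stood at 202, 170.0, 51.7 and 176 CPM in wild type, 87.1, 243, 130.1 and 179 in healthy knock-in and 17.8, 24.6 and 50.03 in sick muscle. In the tibialis the highest sick library and the lowest wild-type library lay at 50.03 and 51.7 CPM. Col6a3 (chr1:90765923-90843971, minus strand) had log2 fold changes of -1.99 ± 0.45 in gastrocnemius (adjusted p = 0.0196), -1.46 ± 0.44 in quadriceps (0.0433) and -2.23 ± 0.50 in tibialis (0.0150, limma). Without 1 library its adjusted p reached 0.0557, 0.192 and 0.0602. The calls of Col6a1 and Col6a2 in gastrocnemius and tibialis held in every leave-one-out fit.

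Col6a5 and Col6a6, chains related to Col6a3, were much lower in level and did not pass in sick against wild-type muscle.
Col6a6 in the gastrocnemius stood at 11.2, 19.2, 4.87 and 9.59 CPM in wild type, 13.9, 31.9 and 13.2 in healthy knock-in and 3.596, 5.48 and 12.9 in sick muscle. In the quadriceps, Col6a6 measured 29.6, 44.4, 32.5 and 12.6 CPM in wild type, 15.7, 54.4, 19.8 and 25.99 in healthy knock-in and 6.90, 11.1 and 15.1 in sick muscle. Col6a6 in the tibialis stood at 18.4, 22.8, 5.43 and 11 CPM in wild type, 11.7, 32.9, 11.6 and 13.5 in healthy knock-in and 3.86, 5.63 and 4.36 in sick muscle. Sick and wild-type libraries overlapped in each muscle, with log2 fold changes of -0.72 ± 0.57, -1.46 ± 0.53 and -1.44 ± 0.54 and adjusted p of 0.404, 0.0762 and 0.0779.
Col6a5 in the gastrocnemius stood at 2.62, 1.61, 0.678 and 0.840 CPM in wild type, 1.54, 1.67 and 0.405 in healthy knock-in and 0.282, 0.638 and 0.226 in sick muscle. In the quadriceps, Col6a5 measured 7.59, 5.18, 6.41 and 1.31 CPM in wild type, 3.51, 5.02, 1.55 and 6.50 in healthy knock-in and 0.316, 0.125 and 1.45 in sick muscle. Col6a5 in the tibialis stood at 2.82, 1.84, 0.290 and 1.16 CPM in wild type, 0.824, 2.098, 0.216 and 1.26 in healthy knock-in and 0.245, 0.0793 and 0.233 in sick muscle. Col6a5 was highest in the quadriceps and at or under 1.45 CPM in every sick library. Its log2 fold change was -1.64 ± 0.77, -3.35 ± 1.10 and -2.79 ± 1.03, with adjusted p of 0.161, 0.0560 and 0.0758.

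**Figure D4:**
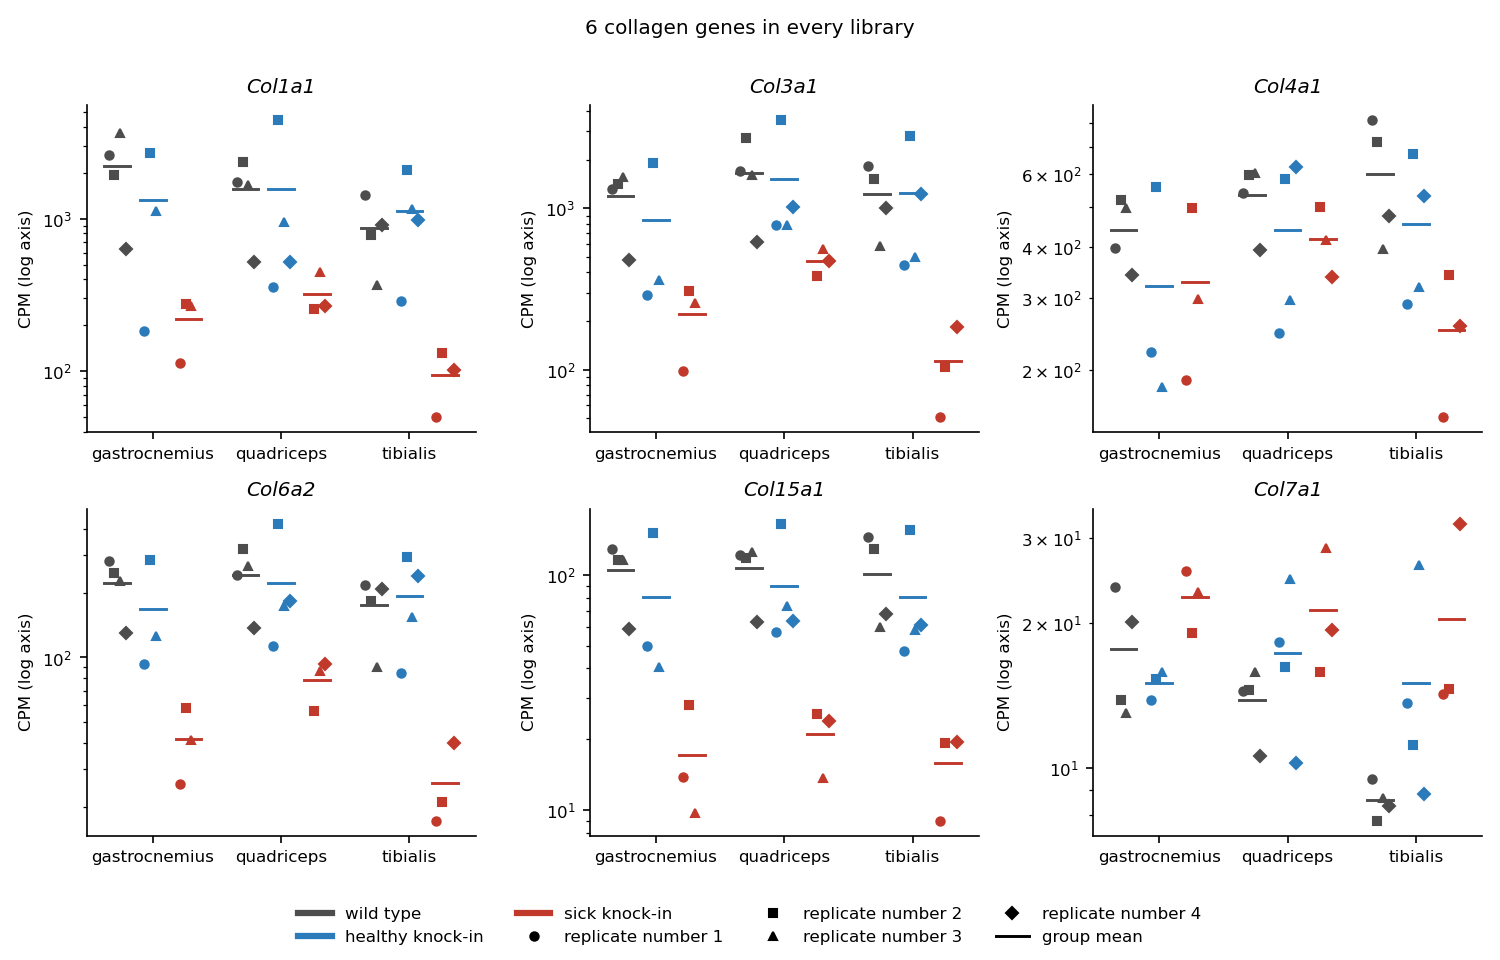
CPM (log axis) of 6 collagen genes in every library, by muscle, with colour for the state, symbol shape for the replicate number and a bar for the group mean. Sick libraries lie below all others for Col6a2 and Col15a1 in each muscle, overlap wild type for Col4a1 in gastrocnemius and quadriceps, and lie above wild type for Col7a1 in the tibialis.

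Col15a1 (chr4:47208161-47313167, plus strand) set sick libraries apart across muscles as well as within them.
Col15a1 in the gastrocnemius stood at 129, 116, 116 and 58.8 CPM in wild type, 49.7, 150.4 and 40.7 in healthy knock-in and 13.8, 27.9 and 9.71 in sick muscle. In the quadriceps, Col15a1 measured 122, 118, 125 and 63.0 CPM in wild type, 56.9, 165, 74.0 and 63.8 in healthy knock-in and 25.7, 13.7 and 23.9 in sick muscle. Col15a1 in the tibialis stood at 145, 128, 59.9 and 68.4 CPM in wild type, 47.4, 155, 58.2 and 61.2 in healthy knock-in and 8.999, 19.3 and 19.4 in sick muscle. The 9 sick libraries spanned 8.999 to 27.9 CPM, and the lowest of the 23 others was healthy knock-in gastrocnemius replicate 3 at 40.7 CPM. Col15a1 fell 6.02-fold in gastrocnemius (log2 fold change -2.59 ± 0.52, adjusted p = 0.0130), 4.76-fold in quadriceps (-2.25 ± 0.41, adjusted p = 0.0109) and 6.13-fold in tibialis (-2.62 ± 0.46, adjusted p = 0.00672, limma). It held in every leave-one-out fit of gastrocnemius and tibialis, and in the quadriceps it was lost without sick replicate 2 (0.0551).

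Of the other members outside these classes, 1 of 18 tested (Col15a1) was lower in sick gastrocnemius, 1 of 17 (Col15a1) in quadriceps and 4 of 19 in tibialis, where 1 was higher. The tibialis calls besides Col15a1 were Col14a1 and Col16a1, FACITs that sit on fibril surfaces, and Col8a1, a short-chain collagen of vessel walls.
Col14a1 in the tibialis stood at 36.4, 22.4, 14.4 and 28.3 CPM in wild type, 15.03, 52.6, 15.6 and 55.0 in healthy knock-in and 6.86, 8.29 and 7.10 in sick muscle. Col16a1 in the tibialis stood at 38.1, 11.1, 9.05 and 15.7 CPM in wild type, 8.10, 23.3, 14.7 and 18.8 in healthy knock-in and 2.57, 5.51 and 5.58 in sick muscle. Col8a1 in the tibialis stood at 15.4, 8.52, 10.2 and 11.8 CPM in wild type, 12.8, 11.2, 12.6 and 8.84 in healthy knock-in and 2.94, 5.71 and 9.31 in sick muscle. Sick tibialis was below both other states for Col14a1 and Col16a1, while for Col8a1 sick replicate 4 lay within their range. The log2 fold changes were -1.71 ± 0.54 for Col14a1 (adjusted p = 0.0457), -1.88 ± 0.56 for Col16a1 (0.0379) and -1.07 ± 0.32 for Col8a1 (0.0409, limma). Col14a1 lost its call without any 1 library (0.0505 to 0.136), and Col16a1 and Col8a1 reached 0.111 and 0.125.
Col14a1 in the gastrocnemius stood at 37.6, 36.6, 29.3 and 29.7 CPM in wild type, 17.8, 53.9 and 8.04 in healthy knock-in and 13.8, 14.3 and 21.9 in sick muscle. Col16a1 in the gastrocnemius stood at 31.8, 26.8, 65.2 and 12.3 CPM in wild type, 7.05, 30.3 and 16.1 in healthy knock-in and 10.4, 15.3 and 12.1 in sick muscle. Col8a1 in the gastrocnemius stood at 14.6, 24.04, 53.4 and 9.52 CPM in wild type, 9.03, 17.1 and 9.12 in healthy knock-in and 10.4, 23.6 and 7.91 in sick muscle. Wild-type replicate 3 was the highest gastrocnemius library for Col16a1 and Col8a1, and for Col14a1 healthy knock-in replicate 2 was.
In the quadriceps, Col14a1 measured 41.9, 64.7, 45.05 and 28.6 CPM in wild type, 18.04, 86.3, 22.6 and 24.4 in healthy knock-in and 15, 44.99 and 29.5 in sick muscle. In the quadriceps, Col16a1 measured 22.7, 33.0, 25.7 and 12.5 CPM in wild type, 7.97, 48.3, 16.5 and 7.82 in healthy knock-in and 9.74, 17.8 and 8.48 in sick muscle. In the quadriceps, Col8a1 measured 12.4, 16.1, 18.1 and 7.97 CPM in wild type, 6.21, 15.5, 11.99 and 6.50 in healthy knock-in and 12.1, 9.47 and 6.62 in sick muscle. None of the 3 passed in gastrocnemius or quadriceps (adjusted p 0.175 to 0.460).

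Col7a1, the collagen of the anchoring fibrils best known from skin, was the member called higher in sick against wild-type muscle.
Col7a1 in the gastrocnemius stood at 23.8, 13.9, 13.03 and 20.1 CPM in wild type, 13.9, 15.3 and 15.8 in healthy knock-in and 25.7, 19.1 and 23.2 in sick muscle. In the quadriceps, Col7a1 measured 14.4, 14.6, 15.8 and 10.6 CPM in wild type, 18.3, 16.2, 24.7 and 10.2 in healthy knock-in and 15.8, 28.7 and 19.4 in sick muscle. Col7a1 in the tibialis stood at 9.47, 7.77, 8.69 and 8.33 CPM in wild type, 13.7, 11.2, 26.4 and 8.84 in healthy knock-in and 14.3, 14.6 and 32.2 in sick muscle. In the tibialis every sick library was above every wild-type library, and healthy knock-in replicate 3 stood at 26.4 CPM, within the sick range. The log2 fold change was 1.12 ± 0.36 in tibialis (adjusted p = 0.0490, limma), and it did not pass without any 1 library of wild type or sick (0.0532 to 0.130). In gastrocnemius and quadriceps it was 0.39 ± 0.22 and 0.52 ± 0.27, with adjusted p of 0.231 and 0.182. The authors' deposited table also listed Col7a1 as higher in sick tibialis.

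Col19a1, a FACIT that muscle precursors are known to make, was low in all groups and above 0 in each of the 3 log2 fold changes of sick against wild type (0.75 ± 0.74, 0.71 ± 0.24 and 1.48 ± 0.55, adjusted p = 0.508, 0.0596 and 0.0767).
Col19a1 in the gastrocnemius stood at 0.306, 2.86, 1.39 and 1.89 CPM in wild type, 2.57, 2.14 and 0.878 in healthy knock-in and 1.27, 1.54 and 4.63 in sick muscle. In the quadriceps, Col19a1 measured 1.55, 2.24, 2.03 and 1.66 CPM in wild type, 1.64, 1.89, 1.14 and 0.842 in healthy knock-in and 3.05, 3.74 and 2.75 in sick muscle. Col19a1 in the tibialis stood at 0.661, 1.25, 0.217 and 0.558 CPM in wild type, 0.412, 0.942, 0.287 and 0.605 in healthy knock-in and 1.10, 3.09 and 1.05 in sick muscle. Sick quadriceps was above both other states, at 2.75 to 3.74 CPM against 0.842 to 2.24 CPM. Col8a2, Col9a1, Col9a2, Col12a1, Col13a1, Col17a1, Col18a1, Col20a1, Col22a1, Col23a1, Col25a1, Col26a1 and Col28a1 passed in no muscle where they were tested. Among them Col28a1, a collagen known from nerve, had 1.47 ± 0.51 in the quadriceps (adjusted p = 0.0613) and 0.00 ± 0.91 and 0.39 ± 0.93 in gastrocnemius and tibialis. Col22a1, a FACIT of the muscle-tendon junction, had log2 fold changes of -1.40 ± 0.49, -1.97 ± 0.64 and -1.86 ± 0.68 with adjusted p of 0.0803, 0.0545 and 0.0738.

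Healthy knock-in against wild-type muscle asks what accompanies the genotype without sickness. None of the 40, 39 and 40 members tested passed in gastrocnemius, quadriceps or tibialis (limma), where 0.00706, 0.0362 and 0.496% of all genes did. At an unadjusted p under 0.05 the counts were 0, 1 (Col26a1) and 1 (Col9a1), and the authors' deposited table called 0 members in each muscle. The shares of all genes at that unadjusted p are not given. The median log2 fold change of the members tested was -0.57, -0.31 and 0.00, where the median of all genes was -0.02, 0.00 and 0.01. The log2 fold change was below 0 for 35 of 40, 34 of 39 and 20 of 40 members, given without the share of all genes. In sick against wild type, which shares these wild-type libraries, 35 of 40, 34 of 39 and 36 of 40 were below 0. The lowest adjusted p was 0.647, for Col9a2 in gastrocnemius (log2 fold change -1.29 ± 0.59). Healthy knock-in libraries differed widely among themselves, with Col1a1 from 182 to 2701 CPM in the gastrocnemius.

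Sick against healthy knock-in muscle compares mice of 1 genotype and shares its sick libraries with the comparison above. In the gastrocnemius 4 of 40 members were lower and 0 higher, against 6.90% lower and 7.17% higher of all genes. The quadriceps had 3 of 39 lower and 1 higher, against 7.51 and 10.1%. The tibialis had 13 of 40 lower and 0 higher, against 6.30 and 5.03%. Col6a2 and Col15a1 were lower in all 3 muscles, and 14 members in at least 1, given without the shares of all genes that were.

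Col6a2 was 3.76-fold lower in sick than in healthy knock-in gastrocnemius (log2 fold change -1.91 ± 0.43, adjusted p = 0.0172), 2.56-fold in quadriceps (-1.35 ± 0.41, 0.0441) and 7.13-fold in tibialis (-2.83 ± 0.44, 0.00863, limma). For Col15a1 the values were -2.03 ± 0.53 (0.0321), -1.94 ± 0.41 (0.0144) and -2.23 ± 0.45 (0.0187). In the tibialis, Col1a1, Col1a2 and Col3a1 were 10.4-fold, 9.66-fold and 9.37-fold lower (adjusted p = 0.0122, 0.0112 and 0.0157), next to Col5a1, Col5a2, Col5a3, Col6a1, Col6a3, Col6a6, Col14a1 and Col22a1. Col6a6 was 3.46-fold lower there (log2 fold change -1.79 ± 0.53, adjusted p = 0.0484) and lost its call without any 1 library (0.0594 to 0.135). Col19a1 was the member that rose, in the quadriceps (1.25 ± 0.28, adjusted p = 0.0157, and up to 0.0741 without 1 library).

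The gastrocnemius count was 1 without healthy knock-in replicate 2, sick replicate 1 or sick replicate 3, and 2 without healthy knock-in replicate 3. In the quadriceps it was 0 without sick replicate 2, 1 without sick replicate 3 or healthy knock-in replicate 3 and 2 without healthy knock-in replicate 2, and in the tibialis 4 without sick replicate 1 or 2 and 7 without healthy knock-in replicate 2. Fits of these states alone left 1 call in each muscle (Col6a2 in gastrocnemius and tibialis, Col15a1 in quadriceps), and with no filter on low counts there were 0 in gastrocnemius, 3 in quadriceps and 2 in tibialis (Col6a1 and Col6a2). The shares of all genes called in these fits are not given.

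The difference of the sick effect between muscles was tested with interaction terms over all 32 libraries. The fit treated libraries as independent, although same-numbered libraries of 1 state correlated across muscles (median r = 0.50). Its standard errors leave that pairing out. None of 41 members passed in any pair of muscles (limma; 0 at an unadjusted p under 0.05 in each pair), where 0, 0.204 and 0.243% of all genes did for quadriceps against gastrocnemius, tibialis against gastrocnemius and tibialis against quadriceps. The lowest adjusted p was 0.639, for Col3a1 in tibialis against quadriceps (-1.92 ± 0.96 on the log2 scale). The larger number of calls in the tibialis is therefore not a tested difference between muscles.

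Wild-type muscles were compared with each other over 40 members tested in each pair. Quadriceps against gastrocnemius gave 1 member, Col23a1, where 1.07% of all genes passed. Tibialis against gastrocnemius gave 2, Col7a1 and Col11a2 (2.58% of all genes), and tibialis against quadriceps gave 2, Col4a5 and Col22a1 (5.67%). With 1 or 2 of 40 members called in a pair, the counts lie near the shares of all genes and are no trait of the family. Replicate numbers tied libraries of different muscles together in the quadriceps-gastrocnemius and tibialis-quadriceps pairs. Counts with the replicate block are given without the share of all genes that passed, so they are no result about collagens in particular. They were 5 for quadriceps against gastrocnemius (Col4a4, Col4a5, Col6a5, Col6a6 and Col23a1). For tibialis against quadriceps they were 6 (Col4a4, Col4a5, Col4a6, Col6a5, Col7a1 and Col22a1). Beside these, 10 of 11 Schwann cell and nerve markers were lower in quadriceps and in tibialis than in gastrocnemius, 3 of 11 tendon markers were lower in tibialis than in gastrocnemius, and 6 of 10 adipocyte markers were lower in tibialis than in quadriceps. The part of these cells in the collagen values was not tested.

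Col23a1, a transmembrane collagen, was lower in quadriceps than in gastrocnemius.
Col23a1 in the gastrocnemius stood at 10.01, 11.6, 12.9 and 8.47 CPM in wild type, 11.2, 9.63 and 3.65 in healthy knock-in and 11.6, 14.4 and 10.2 in sick muscle. In the quadriceps, Col23a1 measured 4.54, 4.33, 4.68 and 7.36 CPM in wild type, 17.9, 7.48, 6.49 and 4.33 in healthy knock-in and 5.63, 8.60 and 5.41 in sick muscle. Col23a1 in the tibialis stood at 6.43, 7.27, 8.69 and 4.15 CPM in wild type, 8.17, 14.5, 4.74 and 8.19 in healthy knock-in and 10.7, 4.999 and 4.36 in sick muscle. Wild-type quadriceps (4.33 to 7.36 CPM) did not overlap wild-type gastrocnemius (8.47 to 12.9 CPM), a log2 difference of -1.16 ± 0.22 (adjusted p = 0.0290, limma). Col11a2 was 3.97-fold lower in tibialis than in gastrocnemius (-1.99 ± 0.39, adjusted p = 0.0153) and Col7a1 1.98-fold lower (-0.98 ± 0.21, adjusted p = 0.0242). Col4a5 was 5.36-fold lower in tibialis than in quadriceps (-2.42 ± 0.50, adjusted p = 0.0150) and Col22a1 3.04-fold lower (-1.60 ± 0.39, adjusted p = 0.0343). Without 1 library the adjusted p of these calls reached 0.163 for Col23a1, 0.0797 for Col7a1, 0.0605 for Col11a2, 0.0564 for Col4a5 (without tibialis replicate 3) and 0.110 for Col22a1.

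Chains that assemble together were compared within each library as log2 ratios of CPM per kilobase, given as a description. Col1a1 to Col1a2 stayed between -0.72 and -0.02 in all 32 libraries, although Col1a1 itself ran from 49.6 to 4447 CPM. Col6a2 to Col6a1 was lower in sick muscle: the 9 sick libraries lay between -1.10 and -0.35, and the 23 others between -0.34 and -0.07. The nearest were sick tibialis replicate 4 at -0.346 and wild-type gastrocnemius replicate 3 at -0.342. By group, sick means were -0.89 ± 0.30, -0.66 ± 0.17 and -0.77 ± 0.39 (SD, n = 3 each) in gastrocnemius, quadriceps and tibialis, against -0.21 ± 0.11, -0.16 ± 0.03 and -0.16 ± 0.05 in wild type (n = 4 each). Col6a3 to Col6a1 overlapped between the states, at -2.49 to -1.13 in sick, -1.89 to -1.14 in healthy knock-in and -2.23 to -1.31 in wild-type libraries. Col4a1 to Col4a2 was 0.08 ± 0.16 in sick tibialis and 0.44 ± 0.05 in wild-type tibialis, while in the other muscles sick and wild-type ranges overlapped. Col5a1 to Col5a2 was -0.92 ± 0.18 in sick and -0.32 ± 0.16 in wild-type gastrocnemius, and -0.92 ± 0.25 against -0.34 ± 0.10 in quadriceps. In the tibialis it was -0.62 ± 0.45 against -0.43 ± 0.15 with overlapping ranges, and healthy knock-in quadriceps replicate 4, at -1.16, was below every sick quadriceps library.

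**Figure D5:**
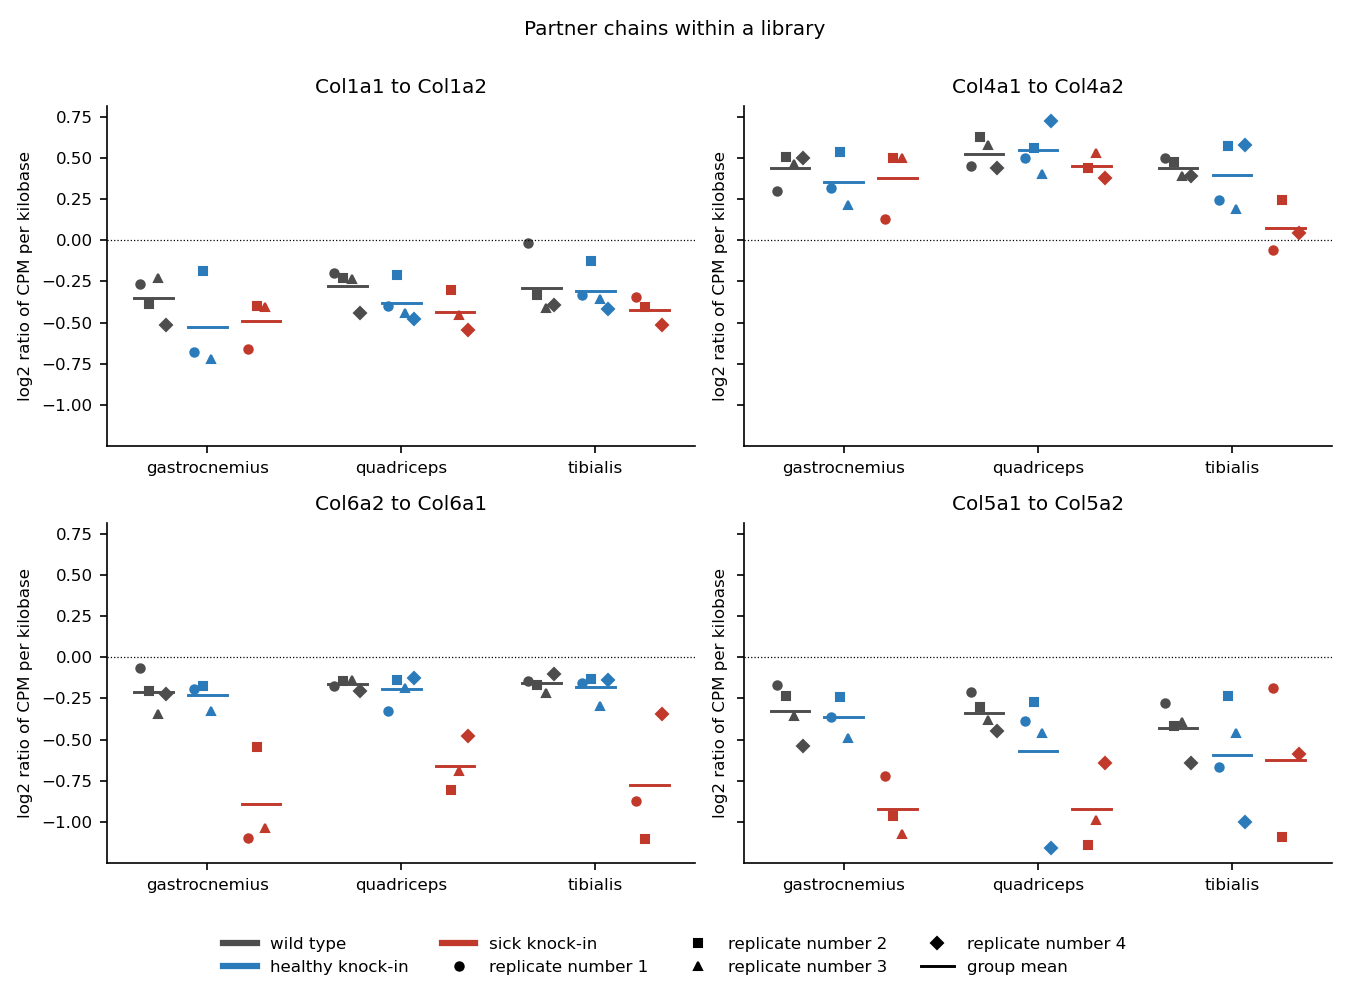
Log2 ratio of CPM per kilobase for 4 pairs of collagen chains in every library, by muscle, with colour for the state, symbol shape for the replicate number and a bar for the group mean. The 9 sick libraries lie lowest for Col6a2 to Col6a1 (-1.10 to -0.35), and Col1a1 to Col1a2 stays between -0.72 and -0.02 throughout.

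Genes that build, cross-link, cut and bind collagen were followed beside the chains, for sick against wild-type gastrocnemius, quadriceps and tibialis in that order. Of 22 listed folding genes (22, 21 and 22 tested), 5, 4 and 10 were lower and 0 higher, with median log2 fold changes of -0.66, -0.58 and -0.82. Serpinh1, the collagen chaperone HSP47, had -2.30 ± 0.34, -1.83 ± 0.39 and -2.09 ± 0.35 (adjusted p = 0.00414, 0.0150 and 0.00532, limma). P4ha1, a prolyl hydroxylase subunit that stabilises the helix, had -1.65 ± 0.26, -1.44 ± 0.30 and -1.10 ± 0.27 (0.00469, 0.0150 and 0.0216).

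Of 12 genes for maturation and cross-linking, 3, 0 and 3 were lower and 0 higher. Pcolce, which enhances cleavage of the procollagen C-propeptide, had -1.79 ± 0.35, -1.04 ± 0.33 and -1.77 ± 0.33 (0.0105, 0.0501 and 0.00793). Of the breakdown genes, 4 of 11, 2 of 12 and 4 of 12 were lower and 0 higher, with Mmp15, a membrane-bound matrix metalloproteinase, at -1.29 ± 0.21, -1.49 ± 0.36 and -1.46 ± 0.41 (0.00602, 0.0218 and 0.0315). Mrc2, the receptor that takes up collagen for degradation, had -1.74 ± 0.31, -1.43 ± 0.44 and -2.17 ± 0.38 (0.00747, 0.0450 and 0.00695). Of 8 collagen receptors 1, 0 and 0 were lower, the 1 being Itga11, an integrin subunit that binds fibrillar collagen (-1.38 ± 0.37, adjusted p = 0.0304).

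Of 15 genes of signals known to act on collagen genes, 3 were higher and 2 lower in gastrocnemius, 1 and 1 in quadriceps and 2 and 2 in tibialis. Tgfbr1, a receptor of transforming growth factor beta, rose in all 3 muscles (1.19 ± 0.26, 0.84 ± 0.22 and 1.29 ± 0.23, adjusted p = 0.0163, 0.0284 and 0.00738), and its ligand Tgfb2 fell in gastrocnemius and quadriceps (-1.14 ± 0.31 and -1.66 ± 0.29, adjusted p = 0.0341 and 0.0101). Among markers of other cells, 1 of 12 endothelial genes was higher (tibialis) and 1 was lower in quadriceps and in tibialis, and smooth muscle and pericyte genes had 1, 1 and 2 of 11 lower. The summed level of the latter was 5772 to 6412 CPM in sick quadriceps against 4486 to 4759.96 in wild type. Medians were 6955 against 4873 in gastrocnemius and 6837 against 5434 in tibialis. That list includes Des (desmin), which skeletal muscle fibres also make. The share of each gene in the sum was not examined, so the sum is not a measure of smooth muscle alone. Of 12 macrophage markers 0, 5 and 0 were higher. Schwann cell markers had 0, 0 and 2 of 11 lower, cartilage and bone markers 1 of 3, 0 of 3 and 1 of 4 lower (Alpl in both). Adipocyte markers had 1 of 10 higher in gastrocnemius and tibialis and 1 of 10 lower in quadriceps. Their summed level did not overlap between sick and wild type in any muscle, at 1365.5 to 1550.1 against 661 to 694 CPM in gastrocnemius, 1510.5 to 1671 against 698 to 996 in quadriceps and 1048 to 1756 against 523 to 808 in tibialis. In healthy knock-in quadriceps the adipocyte sum ran from 412 to 4519.5 CPM. The share of each adipocyte gene in the sum was not examined either, so the sum is not a measure of adipocytes alone. The part of adipocytes and smooth muscle in the collagen result was not tested. Satellite cell markers had 1 higher in each muscle (Cdh15) and 1 lower in gastrocnemius and quadriceps (Pax7). Skeletal muscle fibre markers passed in the tibialis, with 1 higher and 3 lower of 12, and all 9 kidney tubule markers tested there were lower in sick and in healthy knock-in than in wild-type tibialis.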

How the data were processed

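Reads were handled by the authors with cutadapt 1.18, TopHat2 2.1.1, HTSeq 0.6.0 and DESeq2 1.22.1 on GRCm38, per the submitters' processing notes. Settings and the strand of counting are not stated in these sources. The table the authors deposited holds, per the file headers, raw counts for each gene and library, the same values scaled by the authors (normalized signal), and the authors' log2 fold changes and p-values for pairs of groups. The raw columns carry a marker of missing values for 6252 of 54838 genes and whole-number counts for 48586. Raw counts equalled the scaled values times 1 factor per library to within 0.000569 reads. Samples were placed in 9 groups from the labels, and all 44 members had coordinates and lengths in GENCODE vM21.

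From the raw counts, libraries were scaled by TMM (trims 0.3 and 0.05). Genes were kept where CPM reached the level of 10 reads in the median library in a number of libraries equal to the smallest group and the summed count was at least 15. Tests used limma 3.58.1 in R 4.3.3, with voom weights (0.5 reads added) and robust moderated variances, fitted to the 3 states of a muscle, to all 32 libraries for interactions or to the 12 wild-type libraries. P-values are two-sided and were adjusted over all genes tested (Benjamini-Hochberg, threshold 0.05). The procedure was tested on simulated data. The deposited p-values were used only to count members at the same threshold. Counting error is small for the abundant chains, and spread between libraries limits precision.

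Members, classes and lists were chosen with earlier results of these data known. Values in every library are given for the main chains of types I, III, IV and VI and Col15a1, for up to 3 further members a class with the lowest adjusted p in sick against wild type, for up to 4 with the lowest adjusted p between muscles, and for members that rose. Up to 3 genes of each other list were eligible to be named. Col2a1, Col22a1, Col24a1 and members named by single values were added after their values were seen. Replicate numbers were checked by correlating deviations from group means over genes. Across states of 1 muscle, same-numbered libraries did not correlate (median r = 0.006, 29 pairs). Across muscles of 1 state they did (median r = 0.50, 28 pairs, against -0.16 for 87 pairs of different numbers). Every same-numbered wild-type pair of quadriceps and gastrocnemius (r = 0.245 to 0.579) and of tibialis and quadriceps (0.226 to 0.507) was above 0.1, so the block is given beside those results. Alternatives were median-of-ratios scaling, no filter on low counts, limma-trend (prior count 2), the replicate block, fits of 2 states alone or of all 32 libraries, and leaving out each library.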

Additional observations from a re-analysis of the deposited data

Results flagged for a closer look

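Among 140 groups of 4 libraries looked at (named members and class sums), 14 held 1 outlying library. Its gap to the nearest of the others was above Dixon's critical share of the group's range. Chance gives about 1 in 20 for independent groups of normal values, and these genes and their sums are not independent. Groups of 3 libraries, all sick groups among them, were not looked at. In 7 of the 14 the outlying library was healthy knock-in quadriceps replicate 2, which was high. Col1a1 stood at 4447 CPM there (358 to 956 in the others), Col3a1 at 3515 (781 to 1014), Col5a1 at 293 (71.9 to 93.9), Col11a2 at 63.2 (4.21 to 14.03), Col14a1 at 86.3 (18.04 to 24.4) and Col15a1 at 165 (56.9 to 74.0), and the fibrillar sum at 13514 (1799 to 3220.4).

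Healthy knock-in tibialis replicate 2 was high for Col15a1 at 155 CPM (47.4 to 61.2 in the others) and for Col6a6 at 32.9 (11.6 to 13.5). Wild-type replicate 4 was low for Col6a1 in the gastrocnemius at 134 CPM (252 to 261) and for the type VI sum there at 391 (649.6 to 702). In the quadriceps the same number was low for Col4a2 at 283 CPM (377 to 396) and Col15a1 at 63.0 (118 to 125), and high for Col23a1 at 7.36 (4.33 to 4.68).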

How the results depend on the processing

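No result reversed under any alternative, and median-of-ratios scaling left every count and every named call on its side of the threshold. Leaving out the filter on low counts adds genes to the adjustment, and also to the scaling and the variance fits. Calls of sick against wild type were then 4 in gastrocnemius, 2 in quadriceps and 5 in tibialis. Those of sick against healthy knock-in were 0 in gastrocnemius and 2 in tibialis, and those of wild-type tibialis against quadriceps 1. Fits of 2 states alone gave 12 for sick against wild-type quadriceps and 1 for sick against healthy knock-in in each muscle. The fit of all 32 libraries gave 8 for sick against wild-type quadriceps, and limma-trend gave 0 for wild-type quadriceps against gastrocnemius. The replicate block gave 2 for sick against wild-type quadriceps, where the libraries share only a number, and 5, 4 and 6 for wild-type quadriceps against gastrocnemius, tibialis against gastrocnemius and tibialis against quadriceps. The cause of these shifts was not tested. All counts of calls in this section are given without the shares of all genes called in the same fits. Leaving out 1 library gave 3 to 11, 0 to 14 and 8 to 17 calls for sick against wild type in gastrocnemius, quadriceps and tibialis, 1 to 6, 0 to 5 and 4 to 15 for sick against healthy knock-in, and 0 to 3, 0 to 4 and 0 to 6 between wild-type muscles in the order above. With a library left out, healthy knock-in against wild type and the interactions stayed at 0 (0 to 0). In sick against wild type, Col6a1, Col6a2 and Col15a1 passed under every alternative in gastrocnemius and tibialis, and no member did in quadriceps. Of the named gene results, 144 leave-one-out values no longer passed, 15 passed newly and 506 kept their side.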
